A study of Oryza sativa with 12 samples.

Results

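The comparison described here is that of root transcripts between 2 rice varieties grown without arsenate, Bala control against Azucena control, with 3 arrays each. These are 6 of the 12 arrays of the study and are defined by their labels, as the arrays with 0 ppm arsenate. The other 6 arrays are roots of the same varieties grown with 1 ppm (13.3 uM) arsenate, and they enter below as a second comparison of the varieties that shares no array with the first. Plants of all groups stood in hydroponic solution for 7 days (1 week) under 12 hours of light. Each array held 100 mg of root pooled from 4 plants of a single pot, with 5 ug of total RNA labelled, and the 3 replicate numbers are experiments grown at separate times in which all 4 groups were harvested together. Bala is known as an upland indica variety and Azucena as an upland japonica, and a single line stands for each, so that the comparison describes these varieties and not the subspecies.

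Roots of unstressed rice carry a basal set of transporters for water, nitrogen, metals and silicon, and hormone and cell wall genes that go with growth. They can also hold transcripts of defence: WRKY factors that switch on or damp defence genes, pathogenesis-related proteins and chitinases that act on microbes, and the enzymes that turn geranylgeranyl diphosphate into diterpenoid phytoalexins. Varieties of rice are known to differ in which genes they carry, foremost among disease resistance genes, and in how strongly they express them.

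The median signal of the 6 control arrays was 8.7, 10 and 7.3 in Bala and 9.9, 9.5 and 9.9 in Azucena, on a linear scale set to a common trimmed mean on every array. Across the 28461 probe sets tested the Bala controls correlated with r of 0.967, 0.916 and 0.926, the Azucena controls with r of 0.953 to 0.974, and arrays of different varieties with r of 0.831 to 0.881. Bala control 3 thus stood apart from the other Bala controls, and each list count that moved by 2 genes or more without it is also given without it. The 3'/5' signal ratio read from the GAPDH controls was 1.43 to 2.17 on the Bala control arrays and 7.58 to 8.60 on the Azucena control arrays, without overlap, whereas the ratios for actin, cyclophilin and ubiquitin overlapped. Its part in the results was not tested.

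The labelled tissue was checked with markers. Lsi1, the silicon influx channel of root cells (listed as OsNIP2;1), read 6063, 5439 and 5271 in Bala, against 6175, 6192 and 5755 in Azucena. The silicon efflux transporter Lsi2 read 4211, 2908 and 4500.3 in Bala, against 4336, 4116 and 3991 in Azucena. All 8 root markers that matched the array annotation were measured, not every marker planned. The iron transporter OsIRT1 had single-digit signals on all control arrays but those of experiment 3, at 7.2, 3.7 and 131 in Bala, against 9.0, 9.1 and 34.9 in Azucena. Of 5 seed storage and 5 pollen or panicle genes 1 passed the test, the floral factor OsMADS2, at 163, 211 and 151 in Bala, against 17.3, 19.3 and 21.9 in Azucena (log2 difference 3.02 ± 0.22, adjusted p = 2.75e-05). This test compares the varieties and does not show that such genes were silent. Summed signals of the seed storage genes were 1410, 1340 and 1500 in Bala, against 1490, 1520 and 1420 in Azucena. Those of the pollen or panicle genes were 372, 482 and 479 in Bala, against 282, 295 and 370 in Azucena. Markers of green tissue were present too: the mean log2 level of 17 photosynthesis genes was 6.41, 7.44 and 7.35 on the Bala control arrays and 5.50, 5.72 and 6.87 on the Azucena control arrays, with Azucena control 3 above the other Azucena arrays in 14 of 17 genes. Their summed signal ran from 4110 to 6440 in Bala and from 3010 to 4830 in Azucena. The median log2 difference of the 17 genes was 1.16, against 0.016 over all genes, with 14 of 17 above 0. Only PORB, of chlorophyll synthesis, passed the test among the 17, at 53.7, 103 and 95.2 in Bala, against 4.1, 10.1 and 55.9 in Azucena (2.34 ± 0.62), with overlap and a call lost without 4 of the 6 control arrays taken singly, and the chlorophyll-binding protein gene CAB2R, at 729.9, 1313 and 2650.4 in Bala, against 69.5, 94.4 and 1647 in Azucena, did not (adjusted p = 0.137). Their part in the differences below was not tested, and in whole roots fewer cells of a type and less RNA per cell cannot be told apart.

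Between the control roots 3914 of 28461 probe sets passed the test (13.8%), 1591 higher in Bala (5.59%) and 2323 lower (8.16%), from limma fits blocked by experiment, at an adjusted p under 0.05. Counted with 1 probe set a gene, 1903 of 15638 genes passed (12.2%), 802 higher in Bala (5.13%) and 1101 lower (7.04%). Of these 1902 had the same sign in all 3 experiments, which passing the test nearly requires, so that it adds no support. In 1802 of the 1903 the Bala and Azucena arrays did not overlap, which held for 28.7% of all genes tested, 13.6% with Bala higher and 15% with Bala lower. Differences were often large: 247 genes were at least 4-fold higher in Bala and 409 at least 4-fold lower, and 8 were at least 64-fold higher and 19 at least 64-fold lower. In 209 of the lower genes all 3 Bala arrays read at or below the filter value of 9.4 and all 3 Azucena arrays above it, and the converse held for 82 of the higher genes. The filter used the mean over all 12 arrays, so such genes entered the test only through groups where they read higher. The same count was not made over all genes tested. The share of passing probe sets that were higher in Bala was 40.6%, but 51.7% when each array was centred on its median, a scaling that moved the median difference of all probe sets from 0.01 to 0.16. The excess of lower calls therefore depends on the scaling. The arrays read hybridisation to a fixed set of probes, so that less transcript and a sequence difference under the probes cannot be told apart where the varieties differ.

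Among genes with a name the largest rises in Bala covered hormone, defence, chaperone and water channel genes, among them the phytoalexin genes CYP99A2 and OsKO4 given with their list. LOGL3, of the LOG family of enzymes that release active cytokinins, read 584, 940.0 and 1756 in Bala, against 12.4, 15.7 and 0.6 in Azucena (log2 difference 6.80 ± 0.64, adjusted p = 0.000132). PBZ1, a pathogenesis-related protein of the PR10 family, read 3225, 3562 and 752 in Bala, against 60.7, 24.8 and 9.3 in Azucena (6.26 ± 0.99, adjusted p = 0.00281). The plasma membrane aquaporin OsPIP2;4 read 4089.6, 3942 and 1457 in Bala, against 221, 227 and 123 in Azucena (3.95 ± 0.22, adjusted p = 7.02e-06). In none of the 3 genes did the varieties overlap, and Bala control 3 was the highest Bala array for LOGL3 and the lowest for PBZ1 and OsPIP2;4. OC-X read 684, 554 and 1136 in Bala, against 13.5, 20.1 and 15.3 in Azucena (5.38 ± 0.37), and the BURP domain protein genes OsBURP16 and OsBURP10 differed by 5.24 ± 0.60 and 3.48 ± 0.33. CLPB1, a chaperone of the HSP100 class that takes protein aggregates apart, read 257, 407 and 70.3 in Bala, against 16, 8.1 and 2.2 in Azucena (4.41 ± 0.57, adjusted p = 0.000895). OsTBT2 also rose, by 3.24 ± 0.73, and its call was lost without Bala control 1 or 2. OsBADH2, the betaine aldehyde dehydrogenase gene whose loss gives fragrant grain, was named after its values were seen: it read 669, 553 and 627 in Bala, against 64.5, 72.1 and 68 in Azucena (3.13 ± 0.16, adjusted p = 5.14e-06), with a narrow spread in both varieties. The calls of LOGL3, PBZ1, OsPIP2;4, OC-X, both BURP genes, CLPB1 and OsBADH2 held without each single control array.

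**Figure D1:**
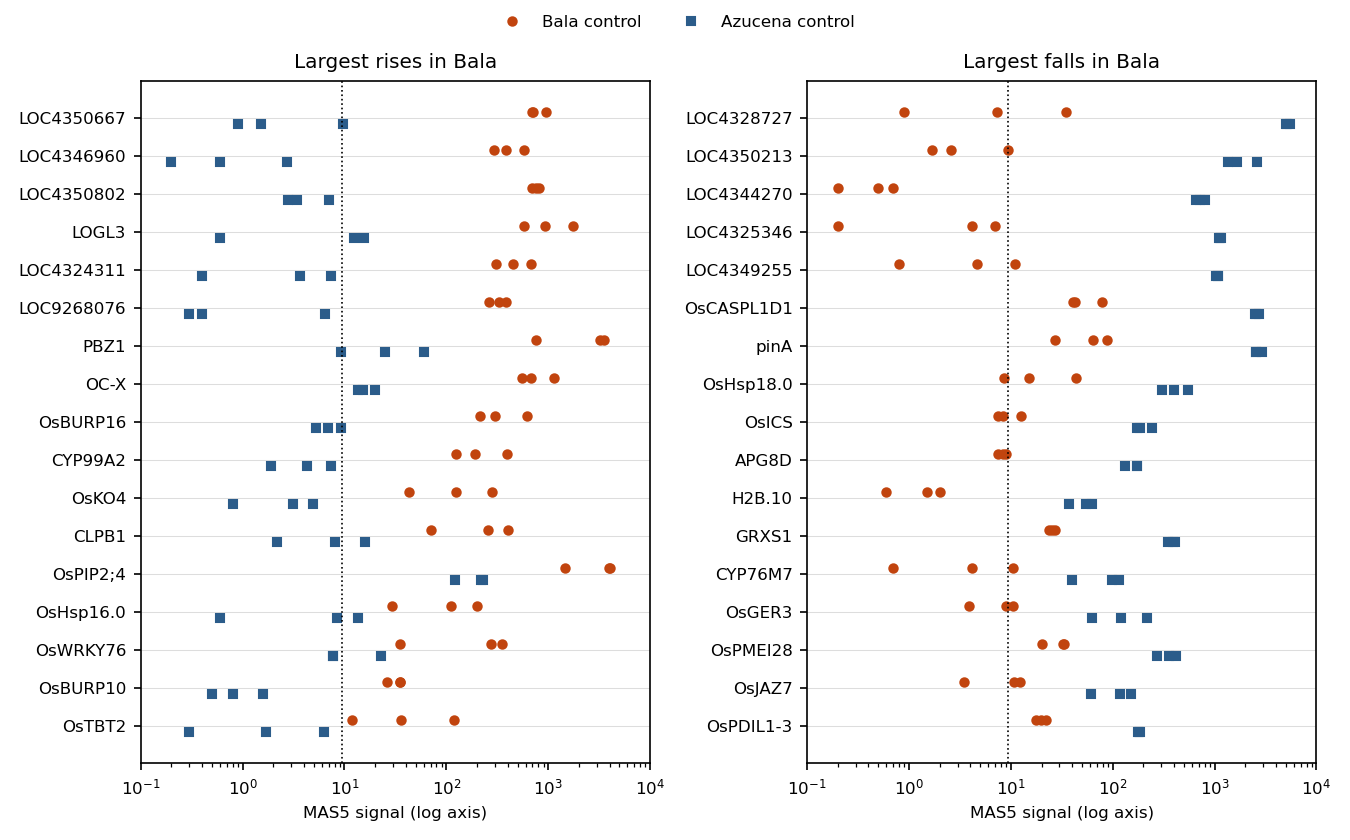
Signals of the 17 genes with the largest rises and the 17 with the largest falls in Bala, on a log axis of MAS5 signal, with 1 point for each control array, circles for Bala and squares for Azucena. The dotted line is the filter value of 9.4. In all 34 genes the varieties do not overlap, and in many the lower variety lies left of the dotted line.

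The largest falls among named genes were those of OsCASPL1D1, pinA, the small heat shock protein gene OsHsp18.0 and OsICS, followed by autophagy, histone and glutaredoxin genes. OsHsp18.0 is given with the chaperones. OsCASPL1D1, of the family related to the Casparian strip membrane proteins, read 40.8, 42.5 and 78.7 in Bala, against 2513, 2744 and 2544 in Azucena (log2 difference -5.60 ± 0.37, adjusted p = 1.81e-05). For pinA the signals were 88.8, 64.6 and 27.2 in Bala, against 2581, 2554 and 2926 in Azucena (-5.58 ± 0.32, adjusted p = 8.5e-06). The 3 Azucena arrays of each gene lay close together and far above every Bala array. GRXS1, a glutaredoxin, read 26.9, 23.6 and 25.2 in Bala, against 392, 349.5 and 412 in Azucena (-3.82 ± 0.19, adjusted p = 4.03e-06). APG8D, of the ATG8 family that builds autophagosome membranes, read 8.9, 7.4 and 8.3 in Bala, against 174, 131 and 174 in Azucena (-3.96 ± 0.18). The histone gene H2B.10 was at 0.6, 1.5 and 2.0 in Bala, against 54.4, 62.3 and 37.5 in Azucena (-3.94 ± 0.27), so that all its Bala signals lay at the bottom of the scale. OsICS, isochorismate synthase, which leads to phylloquinone and salicylic acid, read 7.5, 8.4 and 12.6 in Bala, against 185, 174 and 243 in Azucena (-4.14 ± 0.43, adjusted p = 0.000251). The pectin methylesterase inhibitor gene OsPMEI28 differed by -3.53 ± 0.26 and the protein disulfide isomerase gene OsPDIL1-3 by -3.06 ± 0.34. Neither these 8 calls nor that of OsHsp18.0 were lost without any single control array.

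Genes known only by a locus showed still larger differences. LOC4328727 on chromosome 2 read 35, 7.3 and 0.9 in Bala, against 5138, 5566 and 5055 in Azucena (log2 difference -9.01 ± 0.65, adjusted p = 2.89e-05), and its 3 other probe sets were lower in Bala as well, at -7.89 to -4.54. LOC4350213 and LOC4349255, on chromosomes 11 and 10, differed by -8.27 ± 0.48 and -7.39 ± 0.49, each with a second probe set that passed in the same direction. LOC4344270 on chromosome 7 differed by -8.16 ± 0.37 and LOC4325346 on chromosome 1 by -7.80 ± 0.49. For LOC4325346 a second probe set, of a type that can match several transcripts, fell by only 1.81. Bala signals of these 5 genes lay at 11 or below on all arrays but 1, so the size of the differences depends on the constant added to the signal: the difference of LOC4328727 was -9.53 with 0.4 and -8.06 with 9.4 in place of 2.1. In the other direction LOC4350667 on chromosome 11 read 699, 709 and 950.2 in Bala, against 1.5, 9.7 and 0.9 in Azucena (7.28 ± 0.42, adjusted p = 8.88e-06). LOC4346960, LOC4324311 and LOC9268076, on chromosomes 9, 1 and 11, differed by 7.03 ± 0.37, 6.46 ± 0.36 and 6.44 ± 0.65. LOC4350802 on chromosome 11 had 2 probe sets higher in Bala (6.91 and 7.14) and another lower (-3.24), so that no single direction can be given for the gene.

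Disagreement of this kind was measured over all genes with several tested probe sets. Of 2297 such genes 1803 had no probe set past the threshold. In 101 every probe set passed in the same direction, 33 higher and 68 lower in Bala. In 377 only some passed, all in the same direction, and in 16 probe sets passed in opposite directions. A call on 1 probe set was therefore matched by every other probe set of the gene in fewer genes than not.

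More of the defence genes were higher than lower in Bala control roots. The 4 lists of phytoalexin, WRKY, pathogenesis-related and jasmonate genes held 69 tested genes, of which 17 rose and 3 fell, against 5.13% and 7.04% of all genes. The lists hold only genes whose name matched and were chosen with earlier results of these data known, so the counts describe them and test nothing. In all 17 the varieties did not overlap, as in 1802 of the 1903 genes that passed. In 16 of the 17 Bala control 3 was the lowest Bala array, which was so in 43.1% of all genes that rose. The counts moved with the experiment left out of all groups. The phytoalexin list had 3, 2 and 6 members higher without experiment 1, 2 and 3, and the WRKY list 1, 0 and 4. The pathogenesis-related list had 1, 0 and 7 and the jasmonate list 2, 0 and 10. Where none passed by limma, without experiment 2, 3 WRKY, 6 pathogenesis-related and 3 jasmonate genes were higher at an unadjusted p under 0.05, and 698 of all genes passed there.

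Diterpenoid phytoalexin genes had a median log2 difference of 2.07 over 12 tested members, against 0.016 over all genes, with 4 higher and 1 lower. CYP99A2, a cytochrome P450 of the momilactone gene cluster on chromosome 4, read 192, 393 and 125 in Bala, against 7.4, 1.9 and 4.3 in Azucena (log2 difference 5.10 ± 0.57, adjusted p = 0.000373). OsKO4, a kaurene oxidase-like P450 on chromosome 6, read 125, 278 and 43.1 in Bala, against 0.8, 3.1 and 4.9 in Azucena (4.63 ± 0.59, adjusted p = 0.000771). Both genes were near the bottom of the scale in Azucena and at least an order of magnitude brighter on the Bala arrays of experiments 1 and 2. OsCPS2 and OsDTS2 (OsKSL4), a cyclase of the phytocassane and one of the momilactone branch, differed by 3.02 ± 0.67 and 2.65 ± 0.68, and their calls were lost without 4 of the 6 control arrays taken singly. The momilactone cyclase OsCPS4, at 81, 111 and 36.5 in Bala, against 9.5, 8.4 and 10.1 in Azucena, did not pass (adjusted p = 0.0635). The gene annotated as CYP76M7, on chromosome 6, went the other way, at 10.4, 4.2 and 0.7 in Bala, against 98.8, 116 and 39.9 in Azucena (-3.72 ± 0.47, adjusted p = 0.000777). Without Bala control 3 the list had 7 members higher, and without Azucena control 2, Bala control 1 or Bala control 2 it had 2.

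Of 6 WRKY factors tested 4 were higher in Bala, with a median of 2.50 over the 6. OsWRKY76 and OsWRKY62, related factors known to damp defence genes, read 353, 277 and 35.3 in Bala, against 23, 7.7 and 7.8 in Azucena (3.52 ± 0.82, adjusted p = 0.0211) and 351, 312 and 45.2 in Bala, against 40.2, 11 and 18.7 in Azucena (2.94 ± 0.84, adjusted p = 0.0493). OsWRKY71 and OsWRKY24 differed by 2.44 ± 0.48 and 2.57 ± 0.54. In all 4 the Bala array of experiment 3 lay well below the other Bala arrays and only narrowly above the highest Azucena array. The count was also 4 without Bala control 3. It was 2 without Azucena control 2, Azucena control 3 or Bala control 2, and 1 without Bala control 1. Only OsWRKY71 kept its call without each single array. A second probe set of OsWRKY71, also higher in Bala, did not pass (adjusted p = 0.0935).

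Among 18 pathogenesis-related proteins and chitinases 5 were higher and 1 lower, with a median of 0.43. Besides PBZ1 these were the chitinases OsChia1a, Cht6 and OsChia2a, at 2.41 ± 0.56, 1.87 ± 0.32 and 1.66 ± 0.31, and the germin-like protein gene OsGER6, at 2.09 ± 0.53. OsChia2a had 2 further probe sets, and both passed in the same direction. OsChia1a and OsGER6 were named after their values were seen, and their calls were lost without 4 and all 6 of the control arrays taken singly. Another germin-like gene, OsGER3, was lower in Bala, at 9.0, 10.6 and 3.9 in Bala, against 63.1, 119 and 217 in Azucena (-3.67 ± 0.82), and lost its call without 4 of the arrays. The Pik locus resistance gene PIK6-NP on chromosome 11 was the sole called member of 5 resistance genes, lower in Bala at 13.2, 23.2 and 13.1 in Bala, against 80.6, 74.8 and 89.8 in Azucena (-2.21 ± 0.25, adjusted p = 0.000392). A second probe set of PIK6-NP did not pass (-1.90, adjusted p = 0.0675).

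**Figure D2:**
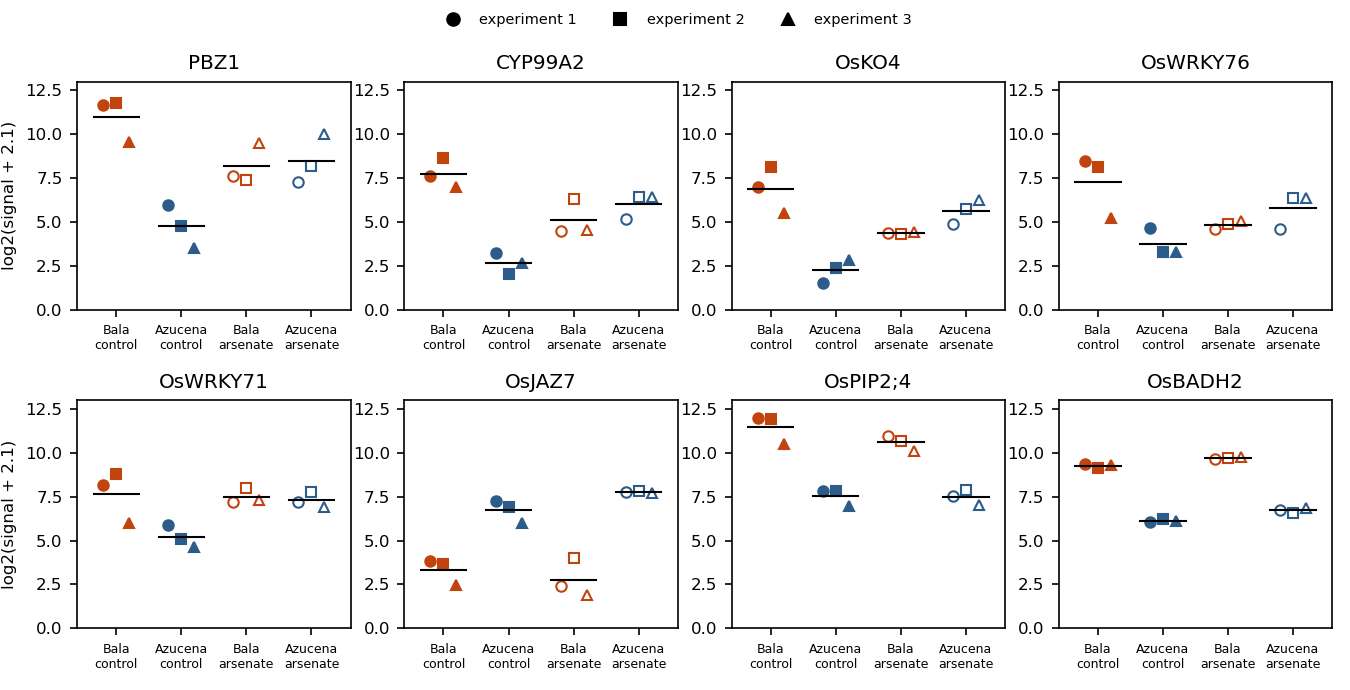
Levels of 8 genes on each array as log2(signal + 2.1), by group, with filled points for control arrays, open points for arsenate arrays, 1 symbol for each experiment and a bar at the group mean. PBZ1, CYP99A2, OsKO4 and the WRKY genes were higher in Bala among control arrays, with the lowest Bala array in experiment 3, and overlap between varieties among arsenate arrays, apart from OsKO4, while OsJAZ7, OsPIP2;4 and OsBADH2 differ in both conditions.

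Most jasmonate genes did not pass. Of 33 tested 4 were higher and 1 lower, with a median of 0.51 and 27 of 33 differences above 0, against 8098 of 15638 over all genes. The lipoxygenases CM-LOX1 and CM-LOX2 on chromosome 8, which begin oxylipin synthesis in the chloroplast, differed by 3.07 ± 0.49 and 2.25 ± 0.61. The jasmonate-responsive factor OsJAMyb differed by 1.67 ± 0.38, and the repressor listed as OsJAZ11 (LOC4335698) read 36, 76.1 and 7.0 in Bala, against 4.3, 0.9 and 0.8 in Azucena (2.98 ± 0.76). OsJAZ7, a repressor of the same family, was lower in Bala on all arrays, at 12.3, 10.8 and 3.5 in Bala, against 151, 119 and 61.9 in Azucena (-3.39 ± 0.40, adjusted p = 0.000484). CM-LOX1 and OsJAZ7 kept their calls without each single array. CM-LOX2, named after its values were seen, OsJAMyb and OsJAZ11 lost theirs without 4 of them. Without Bala control 3 the list had 14 members higher, and it had 1 without Azucena control 2, Bala control 1 or Bala control 2 and 2 without Azucena control 3.

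Other hormone lists held a few passing genes each, where 12.2% of all genes passed. Of 56 auxin genes 2 were higher and 6 lower (median -0.02), close to the share over all genes. The Aux/IAA repressor gene IAA3 was the clearest, at 3289, 3474 and 3307 in Bala, against 825, 758 and 854 in Azucena (2.05 ± 0.17, adjusted p = 6.2e-05), with each variety held within a narrow range. IAA31 was lower in Bala, at 756, 666 and 585 in Bala, against 1399.8, 1492 and 1867 in Azucena (-1.24 ± 0.20, adjusted p = 0.00351), and OsGH3-9, of the family that joins auxin to amino acids, at -1.51 ± 0.32 with overlap between varieties. IAA9 (1.23 ± 0.32), IAA15 (-0.69 ± 0.17), IAA23 (-0.80 ± 0.21) and 2 genes listed as IAA20, LOC4327919 (-0.80 ± 0.16) and LOC4340245 (-1.24 ± 0.28), also passed. The probe sets of IAA23 and LOC4327919 can match several transcripts. A second probe set of IAA23 did not pass (-0.54). Of 2 others of LOC4327919, 1 passed (-0.85) and 1 did not (-0.36). IAA9, IAA15, IAA23 and the second IAA20 gene were named after their values were seen. The count of lower auxin genes was 1 to 4 without a single control array, and only IAA3 and IAA31 of these kept their calls throughout. Beside LOGL3 the cytokinin list held OsAHP1, a phosphotransfer protein of cytokinin signalling, at 0.64 ± 0.16, among 28 tested, with a second probe set that passed in the same direction (0.80). Of 12 gibberellin genes OsCPS, the cyclase that opens gibberellin synthesis, read 6.9, 6.5 and 25 in Bala, against 0.9, 4.7 and 0.3 in Azucena (1.81 ± 0.48), and OsKO1, a kaurene oxidase, differed by -1.32 ± 0.24. Bala control 3 was the only control array above the filter value for OsCPS. The ethylene-forming enzyme gene ACO1 differed by 2.24 ± 0.45 and was the sole called member of 10 ethylene genes. Leaving out control arrays singly ended the call of OsAHP1 in 5 cases, of OsCPS in 4 and of ACO1 in 1 (Azucena control 1), and did not end that of OsKO1.

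Single phosphate and glutathione genes passed, where 12.2% of all genes did, and no list was tested against that share. None of 5 silicon and arsenic genes passed by limma, and 1 had an unadjusted p under 0.05. Lsi1 and Lsi2 differed by -0.11 ± 0.37 and -0.12 ± 0.43 and the arsenate reductase-like gene OsACR2.1 by 0.47 ± 0.18 (adjusted p = 0.124). Of 22 phosphate genes 1 passed, OsMGD2, a galactolipid synthase of phosphate-starved plants, at 2.61 ± 0.61, a call lost without 4 of the control arrays taken singly. The other phosphate genes with the smallest adjusted p did not pass. The varieties did not overlap in them, which held for 28.7% of all genes tested. The phosphate transporter OsPht1;4 read 958, 454 and 91.6 in Bala, against 1752, 1806 and 1269 in Azucena (-2.21 ± 0.74, adjusted p = 0.0901). LPR4 had a difference of 2.26 ± 0.69 (adjusted p = 0.0637) and the SPX domain gene OsSPX2 one of 1.21 ± 0.39 (adjusted p = 0.0805). The transporters OsPht1;8 and OsPht1;2 had differences of 0.26 ± 0.55 and -0.32 ± 0.43. A second probe set of OsPht1;8 read at the bottom of the scale in Bala and passed as lower (-3.31), and another did not pass. Glutamylcysteine synthetase (gcs), the first enzyme of glutathione synthesis, was slightly lower in Bala, at 609, 545 and 812 in Bala, against 989.8, 891 and 1126 in Azucena (-0.63 ± 0.17, adjusted p = 0.0416), on a probe set that can match several transcripts. Its call was lost without 5 of the 6 control arrays taken singly, and its 2 other probe sets did not pass. SAT1, a serine acetyltransferase gene, had probe sets that disagreed, at 0.80 ± 0.24 (adjusted p = 0.0581) on the brightest, which can match several transcripts, and -3.48 (adjusted p = 5.74e-06) on a second.

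Among metal transporters OsZIP4, of the zinc-transporting ZIP family, was lower in Bala, at 27, 28 and 63 in Bala, against 144, 241 and 290.4 in Azucena (-2.50 ± 0.23, adjusted p = 0.000107), the only passing gene of 29. OsYSL14, of the family that carries metal chelates, was the only passing gene of 20 iron genes, at -1.20 ± 0.19. Over all genes 12.2% passed, and neither list was tested against that share. OsNAS2, nicotianamine synthase, at 582, 378 and 1537 in Bala, against 329.5, 80.4 and 377 in Azucena, did not pass (adjusted p = 0.053). Of 23 potassium and sodium genes OsHAK12 fell, at -1.28 ± 0.25, and so did OsHKT1;5, which takes sodium out of the xylem sap, at 42.7, 92.4 and 19.7 in Bala, against 154, 168 and 50 in Azucena (-1.30 ± 0.36). The call of OsHKT1;5 was lost without 5 of the arrays taken singly, and its values overlapped between varieties.

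Among 16 nitrogen genes the ammonium transporter OsAMT1;2 was higher in Bala, at 1201, 917 and 236 in Bala, against 389.6, 206 and 67.6 in Azucena (1.84 ± 0.50), while OsAMT3;3 was lower, at 9.5, 4.6 and 9.1 in Bala, against 73.8, 92.9 and 52.6 in Azucena (-2.94 ± 0.39, adjusted p = 0.00106). Both OsAMT1;2 signals of experiment 3 were the lowest of their variety, the varieties overlapped, and the call was lost without 4 of the 6 control arrays taken singly. OsGLN2, a glutamine synthetase gene, was lower, at -1.73 ± 0.31, whereas its second probe set, dim in both varieties, did not pass. Of 21 aquaporins only OsPIP2;4 rose and OsPIP2;8 fell, at -1.62 ± 0.31. The ABC transporter genes OsABCG36 and OsABCG44 were higher in Bala, at 2.60 ± 0.65 and 2.34 ± 0.46, among 14 tested. Among 23 sugar genes OsSWEET16, a sugar transporter, was lower, at -1.83 ± 0.36. Of the tested members 18.8% of nitrogen, 9.52% of aquaporin, 14.3% of ABC transporter and 4.35% of sugar genes passed, against 12.2% of all genes. The calls of OsZIP4, OsYSL14, OsHAK12, OsAMT3;3, OsGLN2, OsPIP2;4, OsPIP2;8, OsABCG44 and OsSWEET16 held without each single control array, and that of OsABCG36 was lost without 4.

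**Figure D3:**
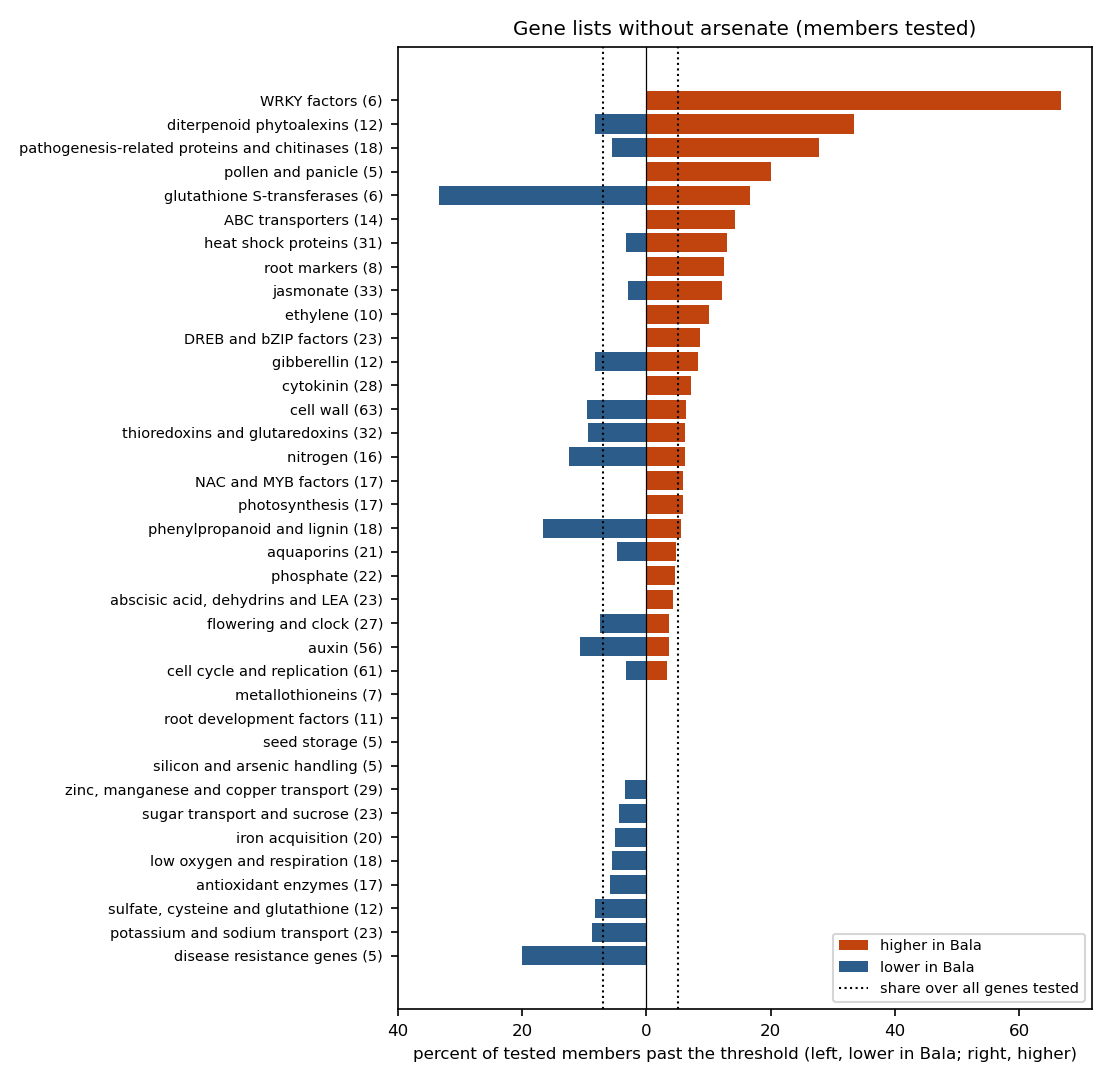
Share of the tested members of each of 37 gene lists that were past the threshold, higher in Bala to the right and lower to the left, with the number tested in brackets. Dotted lines mark the shares over all genes, 5.13% higher and 7.04% lower. WRKY factors, phytoalexin genes and pathogenesis-related proteins lie farthest to the right, and most lists lie near the dotted lines or hold no passing gene on a side.

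Chaperone genes rose and fell within the list. Of 31 heat shock proteins 4 were higher and 1 lower (16.1%, where 12.2% of all genes passed), with a median of -0.08. OsHsp16.0 read 110.2, 202 and 29.3 in Bala, against 8.5, 13.5 and 0.6 in Azucena (3.55 ± 0.72), OsHsp17.9A and OsHsp23.2 differed by 1.16 ± 0.26 and 1.56 ± 0.41, and CLPB1 is given above. OsHsp18.0, a small heat shock protein on chromosome 1, was lower in Bala, at 15.1, 44.1 and 8.6 in Bala, against 397, 543 and 308 in Azucena (-4.32 ± 0.38, adjusted p = 9.16e-05). A second probe set of OsHsp18.0 fell by 1.56, and another, which can match several transcripts, did not pass (-0.05). The call of OsHsp16.0 was lost without Azucena control 2 or 3, and those of OsHsp17.9A and OsHsp23.2 without 5 of the 6 control arrays taken singly. OsHsp23.2 was named after its values were seen.

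Redox genes gave GRXS1 as the largest fall among 32 thioredoxins and glutaredoxins. Of these 2 were higher and 3 lower (15.6%, where 12.2% of all genes passed). The glutaredoxins GRXS9 and GRXS3 were higher, at 1.43 ± 0.31 and 1.15 ± 0.22. Under arsenate GRXS3 passed as lower in Bala (-1.04 ± 0.22, adjusted p = 0.0133). The thioredoxins OsTrx01 and OsTrx18 were lower, at -1.07 ± 0.19 and -1.14 ± 0.26, though OsTrx18 was named after its values were seen and its second probe set did not pass (0.31). Among 6 glutathione S-transferases GST1 read 534, 331 and 142 in Bala, against 2690.3, 2222 and 2345 in Azucena (-3.03 ± 0.36, adjusted p = 0.000539), on a probe set that can match several transcripts. GSTZ5 was lower, at -1.65 ± 0.46, and GST-I higher, at 256, 301 and 54 in Bala, against 22, 30.9 and 12.1 in Azucena (2.87 ± 0.78), and each lost its call without 5 of the control arrays taken singly. The peroxidase gene PRX112 (-1.40 ± 0.32) and the non-symbiotic haemoglobin gene OsNSHB1 (-1.84 ± 0.40) were the sole called members of the antioxidant and low-oxygen lists, of 17 and 18 genes. A second probe set of PRX112 did not pass (0.05), and of 2 others of OsNSHB1, 1 passed. Calls were lost without 4 of the control arrays taken singly for PRX112 and OsTrx18, without 3 for GRXS9 and without Azucena control 3 for OsNSHB1.

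Cell wall genes were close to the share over all genes, with 4 of 63 higher and 6 lower (median -0.19). The glucan synthase genes OsCslC2 (2.17 ± 0.20), OsCslC3 (0.97 ± 0.25) and OsCslD5 (2.02 ± 0.56) and the expansin gene OsaEXPb2.3 (0.81 ± 0.16) were higher in Bala. The cellulose synthase gene OsCesA9, of secondary walls, was lower, at 92.1, 107 and 31.6 in Bala, against 249, 348 and 314 in Azucena (-2.11 ± 0.42). So were OsCslE1 (-2.80 ± 0.57), OsCslE2 (-1.48 ± 0.20), OsCslD2 (-0.83 ± 0.19), the expansin gene OsEXP1 (-1.31 ± 0.36) and OsPMEI28. All of these but OsCslC2, OsaEXPb2.3, OsCslE2 and OsPMEI28 were named after their values were seen. OsCslC2, OsaEXPb2.3, OsCesA9, OsCslE2 and OsPMEI28 kept their calls without each single control array, and 2 further probe sets of OsCslE2 did not pass. The other calls were lost without 2 (OsCslE1), 4 (OsCslD2) or 5 (OsCslC3, OsCslD5, OsEXP1) of the arrays taken singly, and the varieties overlapped in OsCslC3. Of 18 phenylpropanoid genes 22.2% passed, against 12.2% of all genes. Among them Os4CL1, which activates cinnamic acids, was higher (0.72 ± 0.19), while 4CLL1 (-0.82 ± 0.19), chalcone isomerase (Cfi, -1.09 ± 0.28) and the alcohol dehydrogenase OsCAD8C (-1.84 ± 0.28) were lower. OsCAD8C kept its call without each single control array, while Os4CL1 and Cfi lost theirs without 5 and 4CLL1 without 4, and the varieties overlapped in Cfi.

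Regulatory genes added single differences, and the passing share was 11.1% or less in each list here, against 12.2% of all genes. OsNAC3 was higher in Bala among 17 NAC and MYB factors (1.55 ± 0.29), and OsbZIP39 (0.88 ± 0.17) and OsDREB2B (0.67 ± 0.18) among 23 DREB and bZIP factors. Of 27 flowering and clock genes OsMADS2 was higher and OsMADS47 (-1.55 ± 0.28) and OsMADS25 (-2.01 ± 0.48) lower. Of 61 cell cycle and replication genes the cyclin-dependent kinase inhibitor gene KRP6 (1.45 ± 0.37) and the origin recognition gene OsORC1 (LOC4334180, 0.82 ± 0.20) were higher, and the cyclin genes CYCP2-1 (-1.40 ± 0.30) and CYCD6-1 (-0.93 ± 0.26) lower. The late embryogenesis abundant gene OsLEA19 (1.63 ± 0.40) was the only passing gene of 23 in the abscisic acid list. The calls of OsNAC3, OsbZIP39, OsMADS2 and OsMADS47 held without each single control array. Those of OsDREB2B, OsMADS25, KRP6 and CYCD6-1 were lost without 5 of them, those of OsORC1 and OsLEA19 without 4 and that of CYCP2-1 without 3. By limma 0 of 7 metallothioneins and 0 of 11 root development factors passed, and 0 and 2 had an unadjusted p under 0.05. With 12.2% of all genes passing, lists this short say little. OsMT-2, a metallothionein gene, had a difference of 0.75 ± 0.34 (adjusted p = 0.208), while a second probe set passed as lower (-1.35, adjusted p = 0.00568), both of a type that can match several transcripts.

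Beside the phytoalexin and jasmonate lists, 5 lists had counts that moved by 2 genes or more without Bala control 3. Higher genes then numbered 4 of the phosphate list, 6 of the cell wall list and 2 of the low-oxygen list. Lower genes numbered 3 of the auxin list, 4 of the cell wall list and 3 of the sugar list.

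The comparison of the varieties under arsenate, Bala arsenate against Azucena arsenate, asked which of these differences recurred on other arrays. There 3779 probe sets passed (13.3%), 1578 higher in Bala (5.54%) and 2201 lower (7.73%). By gene 1794 passed (11.5%), 754 higher (4.82%) and 1040 lower (6.65%). Of the probe sets that passed without arsenate 2334 passed again with the same sign, 59.6% of the calls without and 61.8% of the calls under arsenate, and 18 passed with the opposite sign. Counted by gene 1028 recurred, 54.0% and 57.3% of the 2 sets of calls. Recurrence grew with size: 30.5% of probe sets with a difference under 1 log2 unit passed again, 51.4% between 1 and 2, 73.5% between 2 and 4, and 93.0% at 4 or more. Lower probe sets recurred in 66.1% and higher ones in 50.2%. Across all tested probe sets the differences in the 2 conditions had r = 0.761, as a description, since both rest on the same probes. The calls are not independent either. The 2 comparisons share no array, but each probe set had 1 estimate of spread, from the fit of all 12 arrays, in both.

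**Figure D4:**
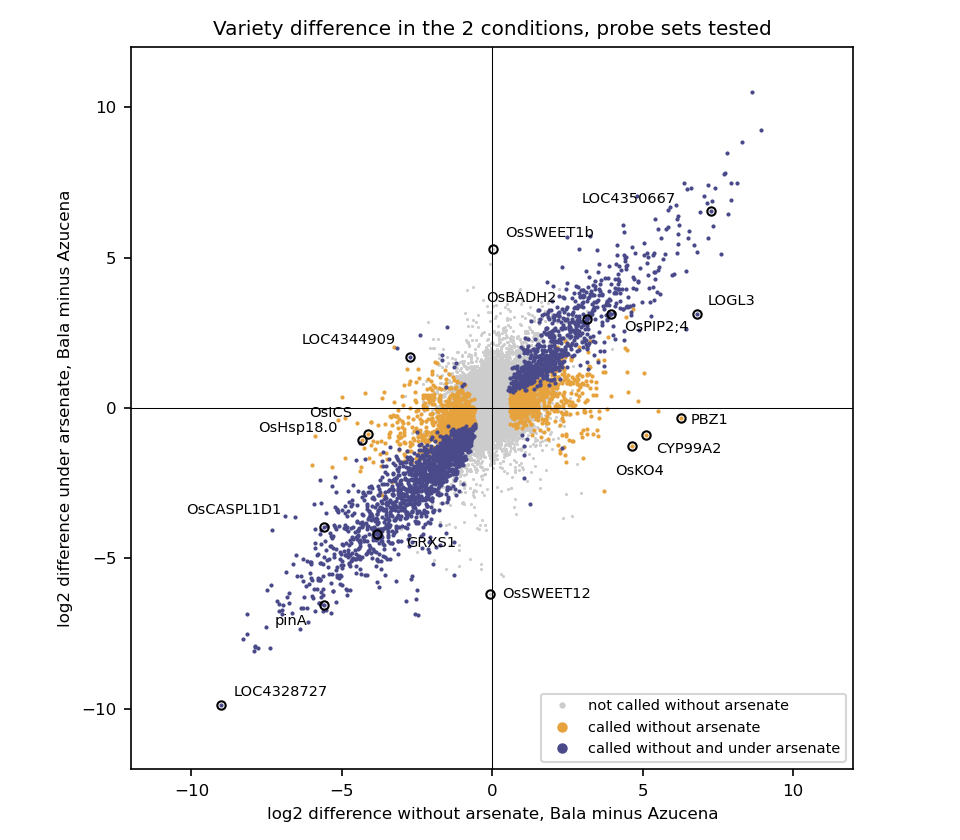
Log2 difference of Bala minus Azucena without arsenate (horizontal) and under arsenate (vertical) for the 28461 probe sets tested, in grey where not past the threshold without arsenate, orange where past it there only, and dark blue where past it in both. Most large differences lie along the diagonal, while PBZ1, CYP99A2 and OsKO4 lie near or below the horizontal line and OsSWEET1b and OsSWEET12 on the vertical one.

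The genes with the largest differences split in this respect. All 5 locus genes highest in Bala and all 5 lowest passed again, as did 6 of the 12 named rises and 8 of the 12 named falls. OC-X differed by 5.15 ± 0.37 under arsenate, OsPIP2;4 by 3.13 ± 0.22, OsBADH2 by 2.96 ± 0.16, IAA3 by 2.19 ± 0.17 and LOGL3 by 3.14 ± 0.64. On the lower side pinA differed by -6.53 ± 0.32, GRXS1 by -4.20 ± 0.19, APG8D by -4.22 ± 0.18, OsCASPL1D1 by -3.95 ± 0.37 and PIK6-NP by -2.20 ± 0.25. None of the 17 defence genes that rose without arsenate passed as higher under arsenate, where 44.6% of all genes that rose did, and the difference was below 0 in 12 of the 17. PBZ1 read 190.3, 165 and 726 in Bala, against 150.2, 292 and 1018 in Azucena under arsenate, so that the varieties overlapped (-0.32 ± 0.99, adjusted p = 0.882). OsICS and OsHsp18.0 did not pass under arsenate either, at -0.86 ± 0.43 and -1.06 ± 0.38.

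Whether a difference changed between conditions was tested directly, as the difference under arsenate minus the difference without. Only 26 probe sets (0.0914%) and 11 genes (0.0703%) passed, against 2967 probe sets at an unadjusted p under 0.05, so that for most genes the difference between conditions was not shown. Of the 17 defence genes CYP99A2 alone passed, with 20.6, 76.5 and 20.8 in Bala, against 33.5, 81.8 and 83.8 in Azucena under arsenate (adjusted p of the change = 0.0485). OsKO4 and PBZ1 did not, with adjusted p = 0.0512 and 0.128. OsSWEET1b and OsSWEET12, transporters of the SWEET family named here after their values were seen, were dim in control roots of both varieties and parted them under arsenate. Without arsenate OsSWEET1b read 0.5, 1.0 and 0.5 in Bala, against 0.7, 0.9 and 0.3 in Azucena, and OsSWEET12 read 1.6, 2.0 and 2.9 in Bala, against 7.0, 1.3 and 0.8 in Azucena. Under arsenate OsSWEET1b read 110.1, 105 and 118 in Bala, against 0.4, 1.4 and 0.7 in Azucena, and OsSWEET12 read 7.3, 7.1 and 6.1 in Bala, against 983, 647 and 419 in Azucena. The count of probe sets that passed this test was 138 with a constant of 9.4, and 5 to 97 without a single control array.

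Genes that differed were not spread evenly over the genome. The share that passed was 9.28% on chromosome 2, the lowest, and 20.1% on chromosome 11, where 49 of 701 tested genes were higher in Bala and 92 lower. Chromosomes 12, 8 and 7 followed, at 14.8%, 14.5% and 14.1%, and chromosome 6 had 10.8%. PIK6-NP, LOC4350667, LOC9268076 and APG8D lie on chromosome 11. That chromosome is known for its many resistance gene clusters, whose part in its share was not tested. In the gene order of the RefSeq assembly ASM3414082v1, which is not stated to be the build of the array, the gene after a passing one passed in 19.4% of cases, against 11.1% after a gene that did not. The longest run of passing genes among those tested was 9 on chromosome 12, from LOC4351878 to LOC4351904, with 3 higher and 6 lower. It held LOC9272184, named after its values were seen, at 3.6, 1.5 and 0.9 in Bala, against 303, 274 and 404 in Azucena (-6.36 ± 0.27). A run of 6 on chromosome 1, from LOC4325338 to LOC4325346, was lower in Bala throughout and held OsHsp18.0. Neighbours that share probes or sequence and neighbours that differ each on their own cannot be told apart here.

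**Figure D5:**
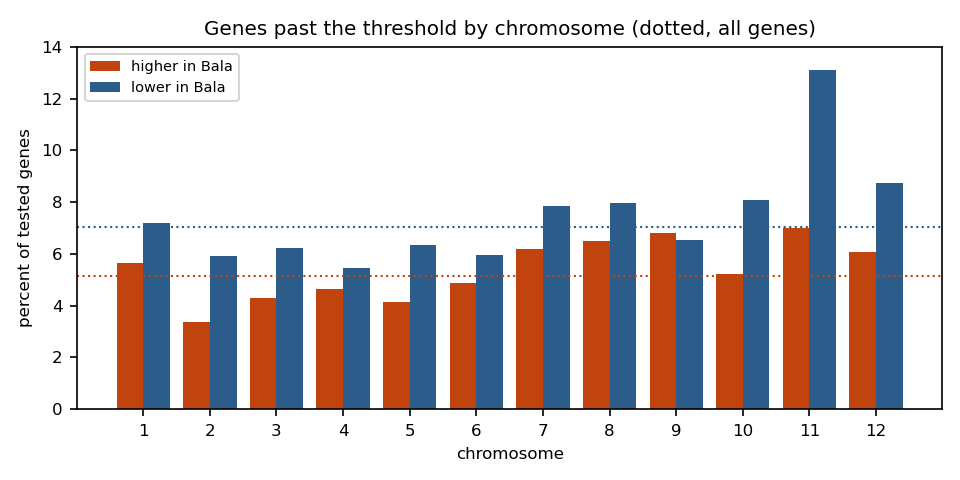
Percent of tested genes past the threshold on each of the 12 rice chromosomes, higher in Bala (left bar) and lower in Bala (right bar), with dotted lines at the shares over all genes, 5.13% and 7.04%. Chromosome 11 has the tallest bars of both kinds, 6.99% and 13.1%.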

How the data were processed

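Signals of 57381 probe sets on 12 Affymetrix Rice Genome arrays were used as deposited. They are linear intensity values that the authors made with MAS5, as the submitters' processing notes name it without a version. After leaving out 2% at each end, the mean was 100 on every array, as the files show. The 123 Affymetrix control probe sets were left out. Analysis used R 4.3.3 and limma 3.58.1 on log2(signal + 2.1), the constant being the 25th percentile of all signals, for the 28461 probe sets with a mean above the pooled median of 9.4.

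The fit (lmFit, eBayes) held all 12 arrays, 4 group means and the replicate number as a block, with 6 residual degrees of freedom. P-values are 2-sided and were Benjamini-Hochberg adjusted over all tested probe sets, with a threshold of 0.05. A value after ± is the standard error. Differences and folds are on this log2 scale, which understates the change of dim genes. The series' text gives the replicate numbers as experiments whose groups were harvested together. Deviations from group means of the control arrays with the same number had r of 0.195, 0.162 and 0.442, and those with different numbers -0.410 to 0.323. Plants were pooled for each array, so that p-values do not measure the spread between plants. With the block, they measure how far the groups varied against each other between experiments. That spread was estimated over all 4 groups, arsenate arrays included, and moderated by eBayes. The number of arrays limits the precision, and detection calls were not used.

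Gene names came from the platform annotation and RefSeq tables: 22436 probe sets had 1 gene, 95 several and 34727 none, and none was named from several. A gene was represented by its tested probe set with the highest mean. Probe sets that can match several transcripts are marked above for some genes only. Those of PORB, LOC4346960, OsABCG44, OsLEA19, OsbZIP39 and OsAHP1, among others, were also of that type. Genes were taken for naming if they passed with the same sign in all experiments and were among the 12 largest rises and 12 largest falls with a name, or the 5 and 5 without, if they were among the 4 smallest adjusted p of a gene list, called or not, or if they were on a list of single loci. This gave 178 genes. The text gives all of them that passed and the uncalled ones its results turn on, and the other 70 did not pass, with adjusted p of 0.0527 or above and differences of -1.30 to 1.79. Genes outside the rule are marked as named after their values were seen. The comparison and all lists were chosen with earlier results of these data known. Alternatives covered the block, the constant, the filter, scaling, eBayes settings, probe set types and leaving out arrays or experiments. Counts of list members without single control arrays or experiments were added after seeing the data. Sequences and coordinates are not used here.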

Additional observations from a re-analysis of the deposited data

Results flagged for a closer look

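In 5 genes named here the difference between the varieties changed between conditions by limma's interaction test. The change is the difference under arsenate minus the difference without. For OsSWEET1b it was 5.26 (adjusted p = 0.000193) and for OsSWEET12 -6.10 (adjusted p = 0.0083). For the phytoalexin gene CYP99A2 it was -5.98 (adjusted p = 0.0485).

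Counted by gene, 6 passed in both conditions with opposite signs. GRXS3 was 1 of them, at 1.15 ± 0.22 without and -1.04 ± 0.22 under arsenate, and its change did not pass (adjusted p = 0.0512). Among the 6, a pair of locus genes, named after their values were seen, also passed the test of the change. LOC4326000 read 142.9, 215.2 and 180.6 in Bala, against 97.4, 57.7 and 108.2 in Azucena without arsenate, and 66.4, 77.3 and 67.0 in Bala, against 314, 319.5 and 459 in Azucena under arsenate. Its difference was 1.04 without and -2.32 under arsenate, a change of -3.37 (adjusted p = 0.0236). LOC4344909 read 9.4, 14.2 and 8.1 in Bala, against 77.7, 59.5 and 116.4 in Azucena without arsenate, and 14.3, 13.7 and 20.6 in Bala, against 3.3, 2.3 and 5.1 in Azucena under arsenate. Its change was 4.45 (adjusted p = 0.00847), on a probe set that can match several transcripts.

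Under the alternatives that kept every array, the change passed in 10 of 10 for OsSWEET12, in 9 of 9 for OsSWEET1b, in 8 of 8 for LOC4344909, in 9 of 10 for LOC4326000 and in 6 of 10 for CYP99A2. When 1 control array or 1 experiment was left out it passed in 6 of 9 fits for each SWEET gene, in 5 of 9 for LOC4344909 and in 2 of 9 each for LOC4326000 and CYP99A2. The direction was the same in all these fits.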

How the results depend on the processing

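Counts of 3914 probe sets and 1903 genes without arsenate, and of 2334 probe sets that recurred, moved by less than 1.5 times under all alternatives that kept every array, except that 1195 genes passed with no filter. Without the replicate block 3669 probe sets, 1774 genes and a share higher in Bala of 39.1% were found. That share, 40.6% as reported, was 36.0% with no filter, 42.7% with a filter at 49.1, 44.0% after quantile normalization and 51.7% after median centring. Under arsenate 2484 probe sets passed with the filter at 49.1, against 3779 as reported. The test of a change between conditions, with 26 probe sets as reported, gave 58 without the block, 17 with a constant of 0.4, 138 with 9.4, 5 with no filter, 56 with a filter at 49.1, 71 after median centring and 64 with an intensity trend.

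Leaving out 1 control array or 1 experiment gave 1748 to 3480 probe sets, 698 to 1691 genes, a share higher of 31.6% to 43.1%, 1653 to 4138 probe sets under arsenate, 1208 to 2151 that recurred and 0 to 97 that changed between conditions. By array, 2938, 2557 and 2728 probe sets passed without Azucena control 1, 2 or 3, and 3312, 2797 and 3480 without Bala control 1, 2 or 3. Without experiment 1, 2 or 3 the counts were 2197, 1748 and 3080. By gene, 1121 passed without Azucena control 2, 1239 without Azucena control 3, 1258 without Bala control 2, and 958 and 698 without experiments 1 and 2. No probe set changed between conditions by limma without any 1 experiment, where 1461 to 4773 had an unadjusted p under 0.05.

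Of 113 called genes named here, 40 kept their call in every alternative that gave a value and none turned its direction. Single control arrays ended the call of 52, whole experiments that of 73, and the other alternatives that of 48, among them 39 with no filter, 30 with the control groups alone and 17 without the block. Uncalled genes near 0 turned sign: OsSWEET12 to 0.02 with a constant of 0.4, 0.02 after quantile normalization and 0.07 after median centring, OsNIP2;1 to 0.02 and 0.03 under both scalings, and Lsi2 to 0.02 after median centring. Without single arrays or experiments the difference ran from -0.44 to 0.16 for Lsi2, -0.80 to 0.82 for OsIRT1, -0.40 to 0.18 for OsNIP2;1, -0.68 to 0.16 for OsPht1;2, -0.24 to 1.03 for OsPht1;8, -0.51 to 0.53 for OsSWEET12 and -0.06 to 0.09 for OsSWEET1b. Signals at or below 9.4 have no reliable order, so that differences against such a group depend on the constant.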
